A study of Mus musculus with 6 samples.

Results

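The transcripts followed here encode the proteins of the cytosolic ribosome, measured in muscle of mice labelled SIRT6 knockout and wild type. SIRT6 is a sirtuin, an enzyme that removes acyl groups from proteins using NAD. A probe set, the unit of measurement, is a group of short array probes designed against the same transcript. Members were the probe sets whose platform annotation gives a single symbol of the Rpl, Rplp or Rps series, with S6 kinases, symbols ending in -ps and Gm gene models left out. The rule found 103 of the 45037 probe sets tested, which stand for 48 of 18193 genes. By symbol 26 of these genes belong to the large subunit and 22 to the small subunit. The 22 include Rps4l, which is listed as a transcribed pseudogene. A further 110 probe sets carry a ribosomal protein symbol together with other symbols and are not members, so that some family members, Rpl3 among them, have none here. The KO group held 3 arrays of muscle RNA from mice with the SIRT6KO genotype, and the WT group 3 arrays from wild-type mice, all on the 129SvJ strain background. Each array is labelled as a separate biological replicate. The labels used here give no age, sex, particular muscle or description of the targeted allele.

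A ribosome joins a small subunit, which binds the mRNA and reads its codons, to a large subunit, which forms the peptide bonds. Each subunit holds ribosomal RNA and a fixed set of proteins, most of them needed in equal numbers. Their mRNAs begin with a run of pyrimidines, the terminal oligopyrimidine (TOP) motif, through which mTOR signalling sets their translation. Several proteins also have a paralogue, a second gene copy with its own expression pattern; Rpl3l, the paralogue of Rpl3, is known from striated muscle.

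The values were deposited on a linear intensity scale in arbitrary units, and changes are given as KO minus WT of log2(value + 16), a scale that understates changes of dim probe sets. Array medians were 11, 13.5 and 12.2 in KO arrays, against 15, 12.3 and 10.8 in WT arrays. The hybridization controls, transcripts added in equal amounts to every array, read 1.01, 1.01 and 0.957 times the WT replicate 2 level in KO replicates 1 to 3, against 1.93 in WT replicate 1 and 0.971 in WT replicate 3. The family's counts and medians are therefore given also after scaling to these controls and without that array, and so are the changes of most bright members described. The single named Sirt6 probe set read 22.6, 18.3 and 13.7 in KO arrays, against 23.2, 15.1 and 21.3 in WT arrays (log2 change -0.07, limma adjusted p = 0.947), and whether it lies in the deleted part is not known here. Xist, the RNA of the inactive X chromosome, read 715.4, 1165.7 and 1138.9 in KO arrays, against 31.3, 24.5 and 29.6 in WT arrays. Genotype and sex therefore cannot be told apart in any comparison below. In whole tissue, fewer cells of a type and less RNA per cell cannot be told apart either.

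Among the members, Rps4l stood apart. Rps4l is a copy of the small subunit gene Rps4x, lies on chromosome 6 and is listed as a transcribed pseudogene in the RefSeq table. Its probe set 1452730_at read 38.5, 58.5 and 57.1 in KO arrays, against 5.5, 1.0 and 2.5 in WT arrays. Every KO array lay above every WT array, and all WT values were below the offset of 16. The means were 51.4 ± 11.2 in KO arrays and 3.0 ± 2.29 in WT arrays (SD, n = 3 each). The log2 change was 1.82 with a 95% interval of 1.41 to 2.23, or 3.53-fold on that scale (2.65 to 4.69). By unadjusted p Rps4l ranked 9 of 45037 probe sets, and limma's adjusted p of 0.0958 (unadjusted p = 1.92e-05) missed the threshold of 0.05. It passed after quantile normalization (limma adjusted p = 0.0118, where 0.02% of all probe sets passed) and after median centring (0.00658, beside 0.0244%). It also passed with a trended, robust variance (limma adjusted p = 0.00646, beside 0.0333%). A filter to the brighter probe sets gave a limma adjusted p of 0.00237 (beside 0.351% of those kept), but Rps4l was kept only through its KO values, the WT values being below the array medians, so that this p is no further support. It did not pass after scaling to the hybridization controls (limma adjusted p = 0.0619, beside 0.00666%) or with an offset of 1 or 64 (0.228 and 0.322, beside 0.00666% and 0.00222%). Nor did it pass with any single array left out (limma adjusted p = 0.0782 to 0.762), where the share of all probe sets called was 0.00222% without KO replicate 2, WT replicate 1 or WT replicate 2, 0.00444% without KO replicate 3, 0.00888% without WT replicate 3 and 0.0133% without KO replicate 1.

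Rps4x, the X-linked gene that encodes the RPS4 protein of the small subunit, read 1580.7, 2059.1 and 2128.9 in KO arrays, against 1907.5, 1364.8 and 1367.2 in WT arrays. These groups overlapped (log2 change 0.32, limma adjusted p = 0.694; 0.63 after scaling to the controls and 0.48 without WT replicate 1). The log2 ratio of Rps4l to Rps4x within an array, both taken after adding 16, was -4.87, -4.80 and -4.87 in KO arrays, against -6.48, -6.34 and -6.22 in WT arrays. The ratio was higher in 3 of 3 KO arrays, by 1.50 (exact permutation test, two-sided, p = 0.1, the smallest that 3 against 3 arrays can give; 0.4 adjusted over 4 ratios). Because Rps4l lay below the offset in the WT arrays, the size of this difference is set by the offset, and it was 3.53 with an offset of 1 and 0.47 with one of 64. Whether the Rps4l probes also bind Rps4x transcripts was not tested.

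**Figure D1:**
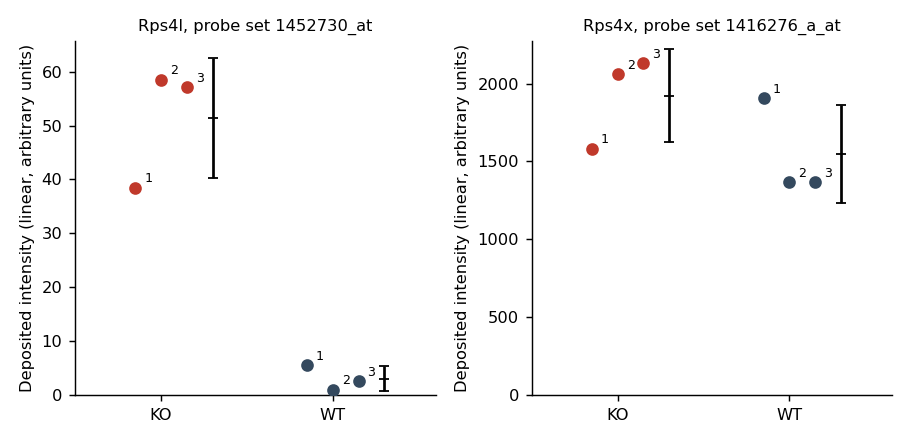
Deposited intensity (linear, arbitrary units) of Rps4l on the left and Rps4x on the right in the 3 KO and 3 WT arrays, numbered by replicate, with the mean and SD beside each group. Rps4l lay between 38.5 and 58.5 in KO arrays and between 1.0 and 5.5 in WT arrays, while the Rps4x groups overlapped.

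The 10 nearest measured neighbours of Rps4l, 5 on each side, were chosen after the Rps4l values were seen. All KO arrays lay above all WT arrays for 0 of them, where the share over all probe sets was 5.02%, and below for 4, where it was 7.29%. By limma 0 passed the adjusted threshold. At an unadjusted p under 0.05 there were 0 higher, beside 3.57% of all probe sets, and 3 lower, beside 4.99%. The 3 were Tmtc1, Ipo8 and Caprin2. Counted by gene, as the neighbours are, KO lay wholly above WT for 821 of all 18193 genes and wholly below for 1518. At that p 644 of all genes were higher and 1145 lower. The mean was higher in KO for Ccdc91, Far2 and 3010003L21Rik, with log2 changes of 0.22, 0.08 and 0.09. Tmtc1, the next gene on one side, read 153.6, 101.1 and 78.7 in KO arrays, against 300.2, 220.6 and 206.7 in WT arrays (log2 change -1.05, limma adjusted p = 0.518). Ipo8, which encodes a nuclear import receptor, and Caprin2 had log2 changes of -0.50 and -0.43. Caprin2 was dim, at 12.9, 10.8 and 10.8 in KO arrays, against 25.1, 21.2 and 17.5 in WT arrays. WT replicate 1, the array with the bright hybridization controls, was the highest for each of the 4 neighbours with KO below. Changes of the neighbours after scaling to those controls or without that array are not given here.

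Across the family, most genes had a slightly higher mean in KO arrays, and none passed the test. Over all 103 probe sets 0 passed limma's adjusted threshold, where 0.00888% of all probe sets did. At an unadjusted p under 0.05, 2 probe sets were higher in KO, those of Rps4l and the dimmer 1448398_s_at of Rpl22, where the share over all probe sets was 3.57%, and 0 were lower, where it was 4.99%. The mean was higher in KO for 33 of 48 genes, with a median log2 change of 0.14 (1.10-fold), whereas 46.8% of all genes were higher, with a median of -0.02. Large subunit genes were higher in 19 of 26 cases with a median of 0.14, and small subunit genes in 14 of 22 with a median of 0.15, so that the 2 medians differed by 0.01. The 37 genes with a mean of at least 300, a limit chosen after the values were seen, had a median change of 0.17, and the 11 dimmer ones -0.13.

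The median level of the family differed between arrays of the same group, and most of the brighter ones were highest in a WT array. Relative to the WT mean, the median log2 level of the 48 genes was -0.13, 0.22 and 0.29 in KO replicates 1 to 3, against 0.42, -0.20 and -0.23 in WT replicates 1 to 3. The same median over all genes was -0.10, 0.03 and -0.01 in KO arrays, against 0.15, -0.00 and -0.14 in WT arrays. Of the 37 brighter genes, 22 were highest in WT replicate 1, 10 in KO replicate 3 and 5 in KO replicate 2. KO replicates 2 and 3 both lay above WT replicates 2 and 3 for 33 of these 37 genes, KO replicate 1 did so for 23, and KO replicates 2 and 3 both lay above WT replicate 1 for 6.

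**Figure D2:**
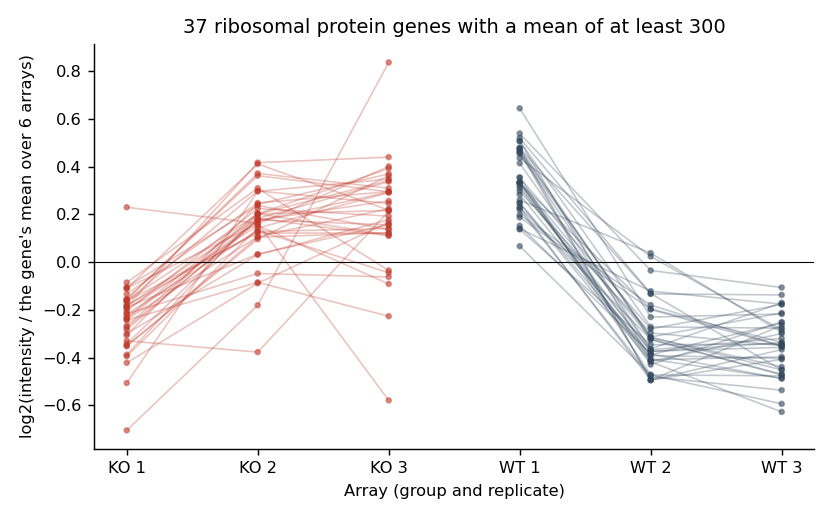
Each line is 1 of the 37 ribosomal protein genes with a mean of at least 300, drawn within the KO arrays (left) and the WT arrays (right); the vertical axis is the log2 of the intensity over that gene's mean of the 6 arrays. WT replicate 1 is the highest array for 22 of the genes, and WT replicates 2 and 3 are mostly the lowest.

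WT replicate 1 is the array with the bright hybridization controls, and the size of the family's difference depended on how it was treated. After scaling every array to those controls, 44 of 48 genes had a higher mean in KO and the median log2 change was 0.43, against 0.12 over all genes, of which 68.4% were higher. At an unadjusted p under 0.05, 38 of 103 probe sets were then higher in KO, beside 9.08% of all probe sets, and 0 were lower, beside 1.66%. All probe sets include many dim ones, whose changes the offset shrinks. With the filter to the brighter probe sets as well, chosen after seeing the data, 22 of 89 members were higher, beside 3246 of 22518 probe sets. Rps4l, kept only through its KO values, was among them. The all-gene median was then 0.20, with 73.5% higher, and the member gene median 0.44, with 43 of 45 higher. The array medians of the family on this scale were 0.14, 0.50 and 0.62 in KO arrays, against -0.19, 0.09 and 0.09 in WT arrays, so that each KO median lay above each WT median. The all-gene median of WT replicate 1 was itself -0.20 on this scale. With WT replicate 1 left out and no scaling, 43 of 48 genes were higher and the median change was 0.36, against 0.04 over all genes, of which 56.3% were higher. On that fit 22 probe sets were higher at an unadjusted p under 0.05, beside 4.22% of all, and 1 was lower, beside 2.87%. Quantile normalization, which forces the same distribution on every array, gave a family median of 0.09, with 31 of 48 genes higher, beside 47.7% of all genes, and 7 probe sets higher, beside 5.9% of all, and 3 lower, beside 6.01%. None of these settings gave a ribosomal protein probe set other than that of Rps4l an adjusted p under 0.05.

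Rps28, a small protein near the mRNA exit side of the small subunit, had the largest change of the brighter members. It read 2367.4, 3597.7 and 3656.2 in KO arrays, against 2823.4, 1943.3 and 1786.3 in WT arrays. WT replicate 1 lay between KO replicate 1 and the other KO arrays, and the 2 remaining WT arrays were lowest. The log2 change was 0.55, or 1.47-fold (95% interval 0.979 to 2.20, limma adjusted p = 0.597), its 3 probe sets gave 0.49 to 0.55, scaling to the controls gave 0.86 and leaving out WT replicate 1 gave 0.75.

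Other bright small subunit genes also read higher in KO replicates 2 and 3 than in WT replicates 2 and 3. Rps20, a protein of the head of the small subunit, read 1082.2, 1554.0 and 1359.2 in KO arrays, against 1386.1, 875.1 and 756.7 in WT arrays (log2 change 0.43). Rps14, which lies on the platform, read 1734.3, 2481.7 and 2368.3 in KO arrays, against 2146.1, 1478.8 and 1376.6 in WT arrays (log2 change 0.40). For both, KO replicate 1 lay below WT replicate 1, so the groups overlapped. After scaling to the controls the change was 0.74 for Rps20 and 0.72 for Rps14, and without WT replicate 1 it was 0.68 and 0.60. Rps29, the brightest member, read 3199.2, 4323.6 and 4061.8 in KO arrays, against 5162.8, 3019.4 and 2771.1 in WT arrays, with a change of 0.13, or 0.44 after scaling and 0.40 without WT replicate 1.

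Rps2, a protein at the mRNA entry channel, had the most negative change of the small subunit genes. It read 2666.5, 2975.9 and 2697.1 in KO arrays, against 4584.3, 3080.1 and 2931.5 in WT arrays. KO replicate 2 lay above WT replicate 3, and the log2 change was -0.32 (limma adjusted p = 0.695). After scaling to the hybridization controls it was -0.00, and without WT replicate 1 it was -0.11. Rps6, the S6 kinase substrate, and Rps16 were represented only by dim probe sets, with means of 6.83 and 11.6 for Rps6 in KO and WT arrays, below the offset in both groups, and Rps16 read 0.6 or less on every array.

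In the large subunit, Rpl37a had the largest change. It read 1840.3, 2652.6 and 2541.0 in KO arrays, against 2385.5, 1470.1 and 1413.7 in WT arrays (log2 change 0.44, limma adjusted p = 0.670). Rpl4, which lines part of the peptide exit tunnel, read 1919.0, 2312.5 and 2733.4 in KO arrays, against 2426.6, 1469.5 and 1561.6 in WT arrays (log2 change 0.37). In both genes KO replicate 1 lay below WT replicate 1 and above the other 2 WT arrays. After scaling to the controls the change was 0.75 for Rpl37a and 0.68 for Rpl4, and without WT replicate 1 it was 0.68 and 0.60. Rpl27a, which was dimmer, read 106.3, 119.1 and 189.0 in KO arrays, against 89.7, 115.5 and 100.2 in WT arrays (log2 change 0.36, 0.62 after scaling and 0.28 without WT replicate 1). Rpl38, linked in mouse embryos to the translation of Hox mRNAs, had a change of 0.31 (0.62 after scaling, 0.52 without WT replicate 1), and Rpl19 one of 0.20 (0.51 and 0.36).

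The acidic stalk of the large subunit, which recruits elongation factors, is built on Rplp0. This gene read 1429.8, 1880.0 and 1480.5 in KO arrays, against 1910.4, 1126.6 and 1274.8 in WT arrays (log2 change 0.18). Its partner Rplp2 read 1132.9, 1643.8 and 1822.1 in KO arrays, against 2074.0, 1189.2 and 1073.3 in WT arrays (log2 change 0.12). The groups overlapped in both genes. After scaling to the controls the change was 0.49 for Rplp0 and 0.43 for Rplp2, and without WT replicate 1 it was 0.40 and 0.41. Rpl41, which encodes a very short peptide, was the brightest large subunit gene and had a change of 0.12, or 0.43 after scaling and 0.40 without WT replicate 1. The dim Rpl14 and Rpl12 probe sets, near or below the offset, had changes of -0.27 and 0.19. Besides Rps4x, the X chromosome carried 1 other member, Rpl39, a tunnel protein, at 34.1, 40.6 and 40.2 in KO arrays, against 53.1, 48.8 and 30.9 in WT arrays (log2 change -0.13).

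Different probe sets of a gene mostly had the same direction. Of 16 genes with at least 2 probe sets of mean 300 or more, 14 did so in all of them, and the median range within a gene was 0.06 on the log2 scale. The exceptions were Rpl13a and Rps10. Whether probe sets of a gene bind shared or related sequences was not tested, so their agreement is not independent support. Of 40 member probe sets with an identifier ending in _x_at, 33 had a higher mean in KO. The count was 18 of 32 with a plain _at ending, 18 of 28 with _a_at and 3 of 3 with _s_at, beside 48.4% of all probe sets. Groups failed to overlap for 3 member probe sets with KO above, beside 5.02% of all probe sets, and for 1 with KO below, beside 7.29%. Those with KO above were of Rps4l, the dim 1433530_at of Rpl41 and 1448398_s_at of Rpl22, which read 100.3, 105.3 and 98.3 in KO arrays, against 73.0, 71.0 and 62.4 in WT arrays (log2 change 0.47, limma adjusted p = 0.524). The brighter Rpl22 probe set 1453118_s_at overlapped, at 783.3, 1146.1 and 1251.3 in KO arrays, against 1209.1, 730.4 and 691.5 in WT arrays. The 1 with KO below was 1455001_x_at of Rpl13a, at 260.1, 304.2 and 293.0 in KO arrays, against 452.3, 314.4 and 320.2 in WT arrays. Its log2 change was -0.31 (limma adjusted p = 0.665), or -0.01 after scaling to the controls, while the brightest Rpl13a probe set had 0.17. The 110 probe sets with several symbols had a median change of 0.14, with 81 higher in KO.

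**Figure D3:**
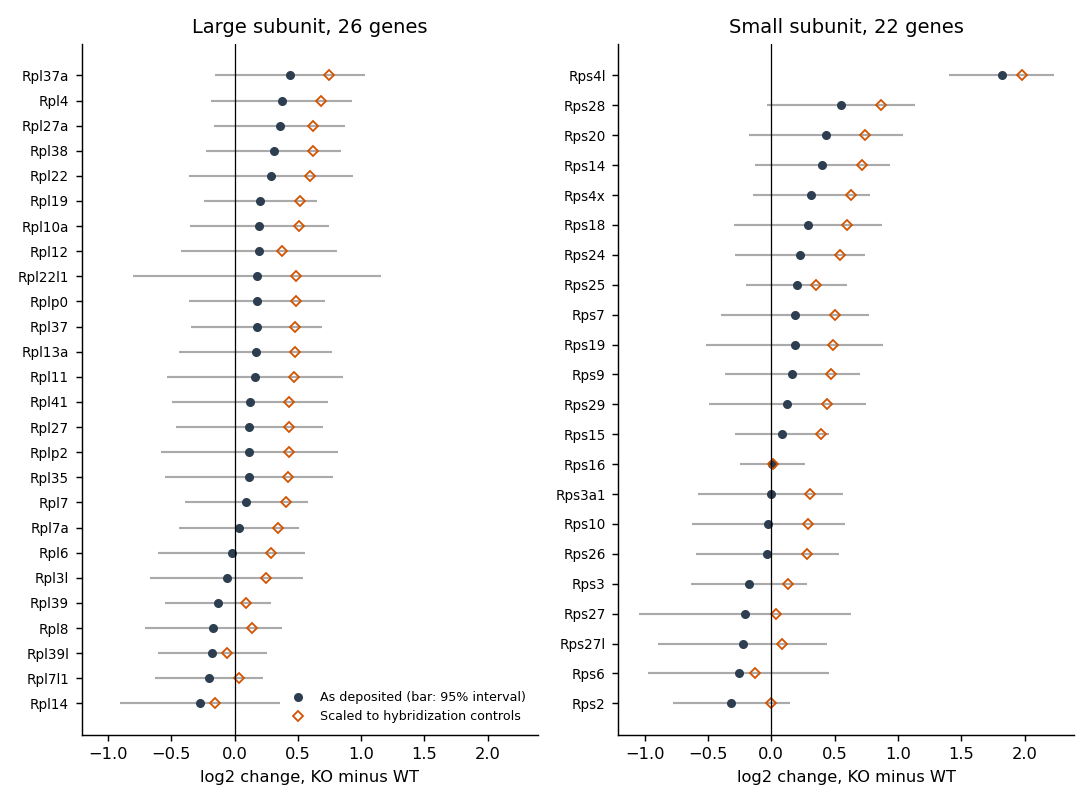
Log2 change (KO minus WT) of the 26 large and 22 small subunit genes; filled points are the values as deposited with their 95% intervals, open diamonds the values scaled to the hybridization controls. The interval of Rps4l alone lies wholly above 0, and the diamonds lie to the right of the points.

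None of the 6 paralogues measured passed the test as deposited, and the groups overlapped for all of them except Rps4l. Rpl3l read 1567.7, 1495.7 and 894.9 in KO arrays, against 1600.4, 1372.3 and 1090.3 in WT arrays. The groups overlapped, with a fold of 0.958 (95% interval 0.629 to 1.46, limma adjusted p = 0.977). Its log2 ratio to the median of the large subunit genes was 0.81, 0.36 and -0.43 in KO arrays, against 0.17, 0.61 and 0.30 in WT arrays (exact permutation p = 0.9). KO replicate 3 had the lowest value of the 6, and without it the difference of -0.11 became 0.23.

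Rps27l, the paralogue of Rps27, read 439.2, 425.0 and 639.8 in KO arrays, against 862.5, 470.5 and 474.7 in WT arrays (log2 change -0.22, and 0.08 after scaling to the controls). Its 3 probe sets gave -0.31 to -0.22, and after scaling the dimmer 1423254_x_at and 1450925_a_at gave -0.005 and -0.004. Rps27 itself was dim, at 21.7, 36.3 and 53.5 in KO arrays, against 80.6, 28.2 and 33.5 in WT arrays (log2 change -0.21). Their log2 ratio differed by -0.02 between the groups (exact permutation p = 1), and the ratio of Rps27l to the small subunit median by -0.19 (exact permutation p = 0.5). Rpl22l1, the paralogue of Rpl22, read 412.9, 593.8 and 1201.8 in KO arrays, against 860.9, 485.0 and 483.8 in WT arrays. KO replicate 3 was far above the other arrays, and without it the log2 change of 0.18 became -0.24. Rpl7l1 and Rpl39l, paralogues of Rpl7 and Rpl39, had changes of -0.20 and -0.17, and Rpl7 one of 0.09.

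Promoter sequences were available for 42 of the 48 genes in the RefSeq table of build GRCm38.p6, 50 promoters in all, each from 250 bases before to 50 after the start; Rps4l, Rps20, Rps14, Rps29, Rpl7 and Rpl8 were not matched. Shown are 100 bases before and 20 after the start for the brighter gene with the largest change, for a gene with both an ETS-type motif and a TOP-type start, and for 2 paralogues, read 5′ to 3′ on the gene's strand. Capitals mark CCGGAAG, AAGATGGC or CTCGCGAG on either strand, or the pyrimidine run at the start.
Rps28: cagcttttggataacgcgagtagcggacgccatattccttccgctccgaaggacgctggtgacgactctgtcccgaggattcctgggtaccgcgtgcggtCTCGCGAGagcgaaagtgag
Rpl38: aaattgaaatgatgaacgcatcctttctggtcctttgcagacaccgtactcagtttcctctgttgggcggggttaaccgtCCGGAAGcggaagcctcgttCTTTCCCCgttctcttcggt
Rps27l: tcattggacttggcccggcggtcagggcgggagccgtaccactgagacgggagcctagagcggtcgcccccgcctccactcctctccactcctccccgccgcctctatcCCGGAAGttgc
Rpl3l: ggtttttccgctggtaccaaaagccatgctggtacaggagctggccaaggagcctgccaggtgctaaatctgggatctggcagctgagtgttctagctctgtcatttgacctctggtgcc
These windows are chr17:33824543-33824662 on the minus strand, and chr11:114668480-114668599, chr9:66945986-66946105 and chr17:24727726-24727845 on the plus strand.

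Rps28 holds CTCGCGAG and Rpl38 holds CCGGAAG and a pyrimidine start, Rps27l holds CCGGAAG just after its start, and the window of Rpl3l holds none of these letters. CCGGAAG, searched on both strands, lay in 20 of 50 member promoters (40.0%), against 8.86% of all 32851 promoters. CTCGCGAG lay in 14.0%, against 0.919% of all, and AAGATGGC in 8.0%, against 2.75%. TATAAA lay in 12.0%, against 13.6%. A start with C followed by 4 pyrimidines on the transcript strand was present in 16%, against 2.51%. Only the bases at the annotated start were read, so a pyrimidine run beginning at another base was counted as absent. Genes with CCGGAAG had a median log2 change of 0.12 (20 genes), and those without it 0.17 (22 genes). Genes with the pyrimidine start had a median of 0.04 (8 genes), and those without it 0.17 (34 genes). For CTCGCGAG the medians were 0.19 with it (6 genes) and 0.12 without it (36 genes), for TATAAA 0.18 (6 genes) and 0.12 (36 genes), and for AAGATGGC -0.02 (4 genes) and 0.14 (38 genes). No test was made of these differences.

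None of the other genes of the translation machinery listed passed the adjusted threshold, and members of each group lay on both sides of 0. Of the ribosomal proteins that the symbol pattern misses, Fau read 655.3, 928.5 and 989.6 in KO arrays, against 823.1, 581.4 and 542.6 in WT arrays (log2 change 0.40). Rpsa read 841.3, 928.6 and 1032.1 in KO arrays, against 1564.2, 907.7 and 905.6 in WT arrays (log2 change -0.22). Among 16 other TOP mRNAs measured of 17 listed, 13 had a higher mean in KO, beside 46.8% of all genes. Their median change was 0.26, or 0.56 after scaling to the controls and 0.43 without WT replicate 1. At an unadjusted p under 0.05 there were 5 higher, beside 3.57% of all probe sets, and 0 lower, beside 4.99%. Counted by gene, as this list and those below are, 644 of all 18193 genes were higher at that p and 1145 lower. Eif4b, a cofactor of the helicase that unwinds mRNA leaders, read 340.2, 506.8 and 679.8 in KO arrays, against 257.5, 273.5 and 213.0 in WT arrays (log2 change 0.95, limma adjusted p = 0.524). Every KO array lay above every WT array for 4 of the 16, beside 5.02% of all probe sets and 4.51% of all genes. They were Eif4b, Naca (log2 change 0.71), part of the complex that binds nascent chains, Hnrnpa1 (1.34), an RNA-binding protein, and Eef2 (0.39), the translocation factor.

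A list of growth regulators, made of the mTOR pathway, TOP mRNA binding proteins, Myc genes and Maf1, had a median change of 0.34 over 16 measured of 18, or 0.62 after scaling and 0.52 without WT replicate 1. The mean was higher in KO for 15, beside 46.8% of all genes. At an unadjusted p under 0.05, 4 were higher, beside 3.57% of all probe sets, and 0 lower, beside 4.99%. Eif4ebp1, the inhibitor of the cap-binding factor eIF4E, read 318.4, 710.8 and 1575.4 in KO arrays, against 276.8, 192.8 and 155.1 in WT arrays. The groups did not overlap, but the KO arrays differed widely among themselves (log2 change 1.74, limma adjusted p = 0.537). Eif4ebp2, a related inhibitor, had a change of 0.50, Maf1, a repressor of RNA polymerase III, one of 0.81, and Myc, a transcription factor of growth genes and dim here, one of 0.54.

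Of 54 ribosome assembly factors measured of 57, 39 had a higher mean in KO, beside 46.8% of all genes, with a median of 0.20, or 0.41 after scaling and 0.31 without WT replicate 1. At an unadjusted p under 0.05, 3 were higher, beside 3.57% of all probe sets, and 2 lower, beside 4.99%. Riok2, a kinase of late small subunit maturation, Ddx10, an RNA helicase, and Utp14a, a small subunit processome factor, had changes of 0.63, 0.64 and 0.64. Bop1, which is needed for large subunit rRNA maturation, read 68.8, 72.6 and 73.7 in KO arrays, against 114.2, 90.9 and 90.2 in WT arrays (log2 change -0.38, and -0.12 after scaling to the controls). Of 15 genes of rRNA transcription, 9 were higher, beside 46.8% of all genes, with a median of 0.10, or 0.30 after scaling and 0.19 without WT replicate 1. At an unadjusted p under 0.05, 0 were higher and 1 was lower, beside 3.57% and 4.99% of all probe sets. The lower one was Ttf1, the polymerase I termination factor, with a change of -0.64, and it was dim, with means of 9.1 in KO and 22.9 in WT arrays. Taf1a, Cd3eap and Taf1d, of the polymerase I machinery, had 0.39, 0.59 and 0.37, and were dim as well. Taf1a lay below the offset of 16 on every array. Cd3eap read 47.5 in KO replicate 3 and 18.7 or less on every other array, and Taf1d was also highest in KO replicate 3, at 43.2. Relative to the WT mean, the median of the assembly factors was -0.11, 0.16 and 0.59 in KO arrays, against 0.19, 0.01 and -0.20 in WT arrays, with KO replicate 3 the highest.

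**Figure D4:**
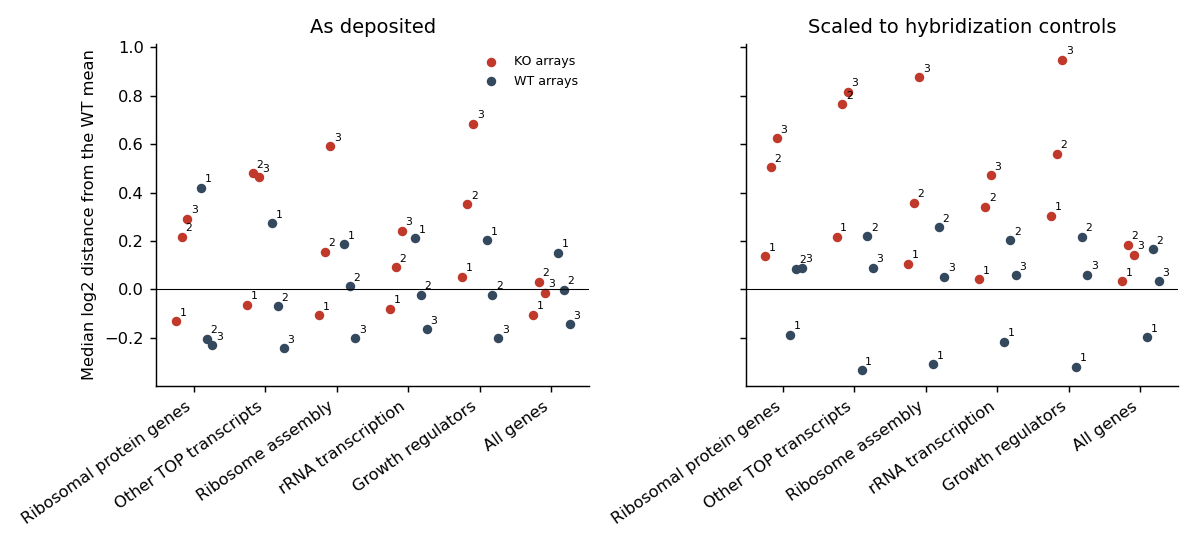
Median log2 distance from the WT mean in each array, for the ribosomal protein genes, 4 gene lists and all genes, as deposited on the left and scaled to the hybridization controls on the right, with KO arrays left of WT arrays and replicates numbered. KO replicate 3 is the highest array for ribosome assembly, rRNA transcription and growth regulators, and in each set plotted WT replicate 1 is above the other WT arrays as deposited and below them after scaling.

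For the labelled tissue, all 12 skeletal muscle markers were measured. Their summed intensity ran from 68587 to 75667 in KO arrays and from 67243 to 109860 in WT arrays. The brightest probe set of an array read 17905.4 in WT replicate 1 and 10099.5 to 10573.2 in the others. Ckm, Acta1, Myh4 and Tnnt3 read close to that level on every array. Whether their values could still follow the amount of muscle RNA was not tested. Markers of other cell types were set beside the family. The summed level of 8 fibroblast markers was 3814.6 to 8170.2 in KO arrays, against 7870.2 to 13892 in WT arrays. In the mean of log2 values 7 of 8 were lower, and Pdgfra was higher by 0.45. The summed level of 6 adipocyte markers was 2433.8 to 4080.5 in KO arrays, against 3577.7 to 6728.9 in WT arrays. All 6 were lower in the mean of log2 values, Cidec by only 0.09. Over all genes 9671 of 18193 were lower. The 8 endothelial markers summed to 589.0 to 904.1 in KO arrays, against 525.2 to 658.3 in WT arrays, and the 9 macrophage markers to 371.8 to 599.6 in KO arrays, against 423.3 to 691.8 in WT arrays. Except for the endothelial list, the highest WT sum given here was that of WT replicate 1. The median log2 change of the fibroblast markers was -0.81, or -0.51 after scaling to the controls and -0.55 without that array. For the adipocyte markers it was -0.55, -0.37 and -0.45, and for the muscle markers -0.19, 0.12 and 0.05. For the endothelial markers it was 0.26, 0.44 and 0.24, and for the macrophage markers -0.13, 0.07 and -0.09. As deposited, 7 of 8 endothelial and 3 of 9 macrophage markers were higher in KO, beside 46.8% of all genes. In the fibroblast and adipocyte lists scaling turned the sign only of Dcn (0.10), Fabp4 (0.02) and Cidec (0.17). Lymphocyte and erythroid markers were dim, 7 of 9 and 3 of 6 of them with a mean under 16. Of 4 satellite cell markers 3 had a mean under 16 and 3 were higher in KO, with a median change of 0.07. Groups failed to overlap for 1 of the 4, with KO above, beside 4.51% of all genes. It was Myf5, at 21.2, 17.1 and 15.9 in KO arrays, against 5.2, 5.1 and 6.6 in WT arrays (log2 change 0.65, limma adjusted p = 0.462). No marker list had a member past the adjusted threshold. The part of these cell types in the family's levels was not tested.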

How the data were processed

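Total RNA from mouse muscle, 3 KO and 3 WT samples, was labelled with biotin and hybridized to Affymetrix mouse expression arrays, per the labels' protocols. Each deposited value is a linear intensity of 1 probe set on 1 array. Its software, scaling and background correction are not named in the labels used here. Of 45101 probe sets, 64 controls were left out. After adding 16 and taking log2, with no step to align the arrays, KO was compared with WT in limma 3.58.1 (two-sided, lmFit then eBayes) under R 4.3.3. P-values were adjusted by Benjamini-Hochberg over 45037 probe sets, with 0.05 as the threshold. Precision is limited by how few arrays there are. A gene was represented by its brightest probe set by the mean of 6 arrays, and only probe sets with a single symbol in the platform annotation (34945) were named. Ratios were compared with exact permutation tests (scipy 1.17.1). The fit was tested on simulated data.

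The members and gene lists were chosen with earlier results of these data known. Genes named were the paralogues and their core genes, X-linked and stalk members, the members of each subunit with the lowest p, the most extreme changes and the highest or lowest means, and up to 4 genes of each list by p. Rps4l's neighbours, Rpl13a, Rps10 and the second Rpl22 probe set were chosen after their values were seen. Alternatives were quantile normalization, median centring, scaling to the hybridization controls, offsets of 1 and 64, a refit of the brighter probe sets (mean above the median), eBayes with trend and robust options, a replicate block and leaving out each array. Same-numbered KO and WT arrays did not deviate together (correlations -0.0567, 0.0263 and -0.0569). The motif CTCGCGAG is a shortened form, adopted after a longer one with 1 more base on each side had been searched.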

Additional observations from a re-analysis of the deposited data

How the results depend on the processing

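Over all probe sets 4 passed as deposited. The count was 9 with quantile normalization, 11 with median centring, 1 with an offset of 64, 79 with the filter above the median level, 15 with a trended and robust variance and 0 with the replicate number as a block. With arrays left out it ran from 1 (KO replicate 2, WT replicate 1 or WT replicate 2) to 6 (KO replicate 1), and leaving out KO replicate 3 gave 2. Settings added after seeing the data gave 516 for the filter with hybridization control scaling and 28 for the filter with quantile normalization. Of the ribosomal protein probe sets, 0 passed as deposited and 1, that of Rps4l, passed with quantile normalization, median centring, the filter, the trended and robust variance and both added settings. In the filter and both added settings Rps4l was kept only through its KO values, so those passes are no support. With the replicate block 0 passed, Rps4l having an adjusted p of 0.545 by limma, and the numbers did not pair the arrays. The Rps4l to Rps4x ratio had p = 0.25 in the exact test within numbers. That is the smallest two-sided p this test can give with 3 numbers, so it could not have passed.

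The family median of 0.14 ran from 0.03 (without WT replicate 2) to 0.36 (without WT replicate 1) with arrays left out. Leaving out KO replicate 3 or WT replicate 3 gave 0.04, KO replicate 2 0.07 and KO replicate 1 0.26. The large minus small subunit difference of -0.01 ran from -0.034 to 0.086 (without WT replicate 1; 0.056 without KO replicate 1). The Rps4l log2 change was 3.85 with an offset of 1 and 0.78 with an offset of 64, and its ratio to Rps4x 3.53 and 0.47. The Rps27l to Rps27 ratio changed sign to 0.043 with hybridization control scaling and 0.048 with an offset of 1, and ran from -0.16 to 0.098 with arrays left out; that of Rpl3l to the large subunit median ran from -0.39 to 0.23. The planned ratio of Rpl3l to Rpl3 was not run, because Rpl3 has no probe set with a single symbol.

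With hybridization control scaling the sign turned for 11 of the 48 genes, each higher in KO after scaling. Among the genes named these were Rps27l (0.083), Rps27 (0.040), Rpl3l (0.25), Rpl7l1 (0.035), Rpl39 (0.093), and Rps10 (0.29). Outside the family and the cell type markers it turned for Rpsa (0.088) and Sirt6 (0.093). With quantile normalization it turned for 2 of the 48 genes, among them Rplp2 (-0.013). With arrays left out, the sign of genes named turned within these ranges: Rps27l -0.41 to 0.058, Rps27 -0.42 to 0.14, Rpl3l -0.21 to 0.19, Rpl22l1 -0.24 to 0.51, Rplp2 -0.063 to 0.41, Rps29 -0.044 to 0.40, Rpl41 -0.077 to 0.40, Rpl12 -0.068 to 0.33, Rpl14 -0.44 to 0.043, Rpl7 -0.038 to 0.29, Rps10 -0.24 to 0.24, Rpsa -0.35 to 0.037 and Sirt6 -0.17 to 0.028. The cause was not tested. Of 751 log2 changes of the named genes under the alternatives, 716 kept their direction and their side of the threshold, 26 changed sign, 4, all of Rps4l, passed where the deposited values did not, and 5, all of Xist, no longer passed.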
